A study of Homo sapiens with 2 samples.

Results

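The thioredoxin-interacting protein gene TXNIP, 4 of its arrestin-domain relatives (ARRDC1, ARRDC2, ARRDC3 and ARRDC4) and the genes of the glucose-sensing transcription factors MondoA (MLXIP) and ChREBP (MLXIPL) were examined in HepG2 cells, an established human hepatoma line, treated briefly with the plant alkaloid berberine. The members were all probes that the platform annotation assigns to these 7 genes, which came to 12 of the 47231 probes of the Illumina HumanHT-12 v4 BeadChip. Cells received 40 µM berberine chloride for 4 h, from a stock in DMSO, or 0.08% DMSO alone for 4 h as the control, and 1 array was hybridized per group with total RNA. With 1 array per group there is no spread between replicates, so no test was made and each difference compares these 2 arrays. The family was chosen by the large difference of the TXNIP probe in this same comparison, so the members' differences are given as a description, with nothing drawn from them.

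TXNIP and the ARRDC proteins are alpha-arrestins, adaptor proteins with an arrestin fold that bind membrane proteins and recruit ubiquitin ligases of the NEDD4 family. TXNIP also binds and inhibits thioredoxin, and it promotes the removal of the glucose transporters GLUT1 and GLUT4 from the cell surface. MondoA and ChREBP enter the nucleus when glucose 6-phosphate is high, pair with MLX and bind carbohydrate response elements. TXNIP and ARRDC4 are their best-known shared targets, and ChREBP is the main glucose-responsive activator of lipid synthesis in liver.

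A probe counted as detected when its detection p, the share of negative-control values at least as bright, was under 0.01, and a gene was measured when 1 of its probes was detected on both arrays. Of the 12 probes 6 were detected on both arrays, and 4 of the 7 genes (TXNIP, ARRDC2, ARRDC3 and MLXIPL) were among the 9128 measured genes. The median probe intensity was 130.1 on the berberine array and 120.6 on the control array. The intensity at a detection p of 0.5, taken here as the background, was 120.1 on the berberine array and 111.7 on the control array, so dim probes read slightly higher with berberine before normalization. In all, 32.6% of probes were detected on the berberine array and 32.5% on the control array. Of 14 hepatocyte markers 13 were measured and 0 differed by over 1.5-fold, against 7.95% of all measured genes. ALB had an intensity of 24128 with berberine and 22728 in control. None of the 5 endothelial or 6 fibroblast markers was detected on either array. Of 7 immune cell markers CD68, LYZ and AIF1 were measured, within 1.5-fold, while PTPRC was not detected.

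**Figure D1:**
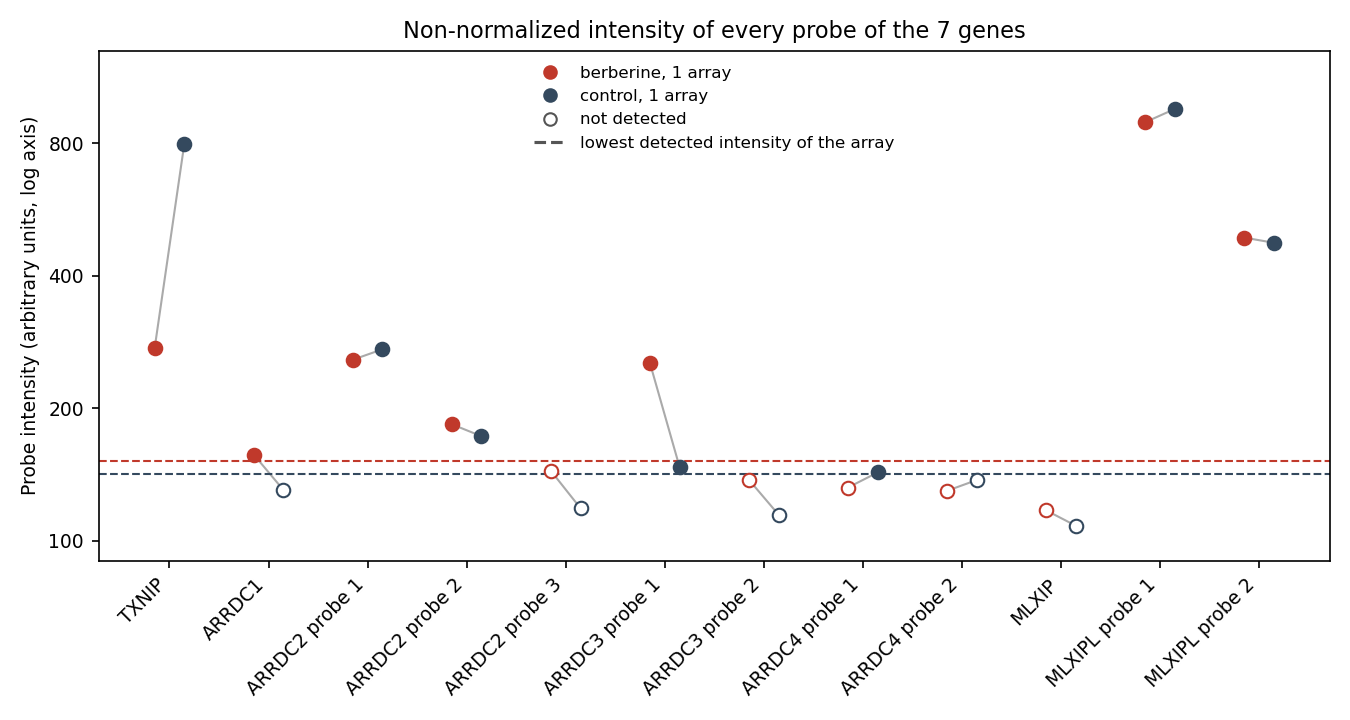
Non-normalized intensity (log axis) of each of the 12 probes on the berberine array (left point of each pair) and the control array (right point), with open points where the probe was not detected and dashed lines at the lowest detected intensity of each array (151.5 with berberine and 141.6 in control). TXNIP is far dimmer with berberine, probe 1 of ARRDC3 is brighter, and the berberine and control points of each MLXIPL probe lie close together.

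TXNIP was the member with the largest difference and was 4.42-fold lower after berberine treatment. Its single probe, ILMN_1697448, annotated to the transcript NM_006472, had an intensity of 274 in berberine-treated cells and 799 in control cells, and it was detected on both arrays. The probe was thus dimmer after treatment but still well above background. After subtraction of the background, the intensity was 154 with berberine and 688 in control, a ratio of 0.223. RNA of whole cultures was measured, so a lower level in every cell and a loss of expression in some cells cannot be told apart.

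On the normalized log2 scale (background-corrected and quantile-normalized with neqc), TXNIP had 7.36 with berberine and 9.51 in control, a log2 difference of -2.14. Among the 9128 measured genes only 1 had a lower difference, ZC3HAV1 with -2.26, named after its value was seen. ZC3HAV1, an antiviral RNA-binding protein, had a second detected probe that gave 0.15. Its remaining probe, not detected on both arrays, gave 0.92. The authors' normalized intensity, which keeps the background, was 272 with berberine and 843 in control for TXNIP, 3.10-fold lower with berberine, and no measured gene had a lower difference on that scale.

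TXNIP lies on the minus strand of chromosome 1 (chr1:145992435-145996579, GRCh38.p14). The promoter window of the upstream of its 2 annotated starts, which reaches 250 bases before and 50 bases after that start (RefSeq, GRCh38.p14), was read for the letters of a carbohydrate response element, since the known elements pair E-box-like elements with a spacing of 5 bases. These elements were written CACGNG or, on the other strand, CNCGTG, and all 4 orders were searched (CACGNGNNNNNCACGNG, CACGNGNNNNNCNCGTG, CNCGTGNNNNNCACGNG and CNCGTGNNNNNCNCGTG). TXNIP held 1 such pair, at positions -88 to -72 relative to the start. Among the 10 windows read for the 7 genes, no other held one. The only MLXIPL window (minus strand) was that of a start at chr7:73624522, inside its locus. The upstream end of that locus, at 73647907, was therefore not read. The ARRDC4 window (plus strand) held a perfect E-box, CACGTG, at positions -210 to -205, which none of the others had. The TXNIP stretch is shown for its pair, which has the form of the known carbohydrate response elements. The ARRDC4 stretch is shown for its single E-box, which is not such a pair. Only these exact letters within the window were searched, so an element with other letters or outside the window would be missed. Capitals mark the paired elements or the E-box.
TXNIP, chr1:145996645-145996673, minus strand: gatgtgCACGAGggcagCACGAGcctccg
ARRDC4, chr15:97960481-97960510, plus strand: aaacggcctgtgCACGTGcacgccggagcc

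The pair was present in 27 of 35116 promoter windows (0.0769%) and CACGTG in 2548 (7.26%). The box CCAAT, on either strand, was found 2 times in the TXNIP window, 3 times in that of ARRDC4 and in 34.6% of all windows. A match of letters is not evidence that a factor was bound in these cells. Besides TXNIP, 17 measured genes had a promoter window with the pair, and their median log2 difference was 0.03. Over all measured genes 7.95% passed 1.5-fold either way, and of these 17 genes 1 was higher and 0 lower. The higher gene was HES1, a transcriptional repressor of the Notch pathway, with an intensity of 565 in berberine-treated and 202 in control cells and a log2 difference of 2.07. PKLR, the liver pyruvate kinase and a textbook ChREBP target, had 291 with berberine and 235 in control, a log2 difference of 0.37, and its second detected probe gave 0.14. The pairs of these genes, both chosen after their values were seen, are shown for comparison with that of TXNIP.
PKLR, chr1:155301056-155301084, minus strand: gtaagcCACGGGgcactCCCGTGgttcct
HES1, chr3:194136084-194136112, plus strand: gtttcaCACGAGccgttCGCGTGcagtcc

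Of the 4 measured members 1 was over 1.5-fold higher (ARRDC3) and 1 over 1.5-fold lower (TXNIP) in berberine-treated cells. Of all 9128 measured genes, 7.95% passed 1.5-fold in either direction, 3.87% with the higher value in berberine-treated cells and 4.09% with the lower one. In the deposited normalized intensity 2.44% passed it, 1.44% higher and 1.01% lower. With so few members these shares are not compared. Both genes also passed 1.5-fold in the deposited values. As a partial measure of error, the SD of a single probe, taken from 2193 genes with at least 2 detected probes, was 0.25 in log2 units, and 0.31 among the dimmest 731 of these genes. It covers differences between probes and transcript forms but not the spread between cultures.

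ARRDC3, an adaptor that brings the beta2-adrenergic receptor to NEDD4, differed in the direction opposite to that of TXNIP. Its brighter probe, ILMN_2198515 (NM_020801), had an intensity of 254 in berberine-treated cells and 147 in control cells. In control the probe was barely above the lowest detected intensity of 141.6, with a detection p of 0.00519. The log2 difference was 1.51, 2.85-fold higher with berberine, and 28 of the 9128 measured genes had a higher one. Because the control value lies so near background, the size of the fold depends on how background is treated, and the deposited normalized intensity (251 with berberine and 156 in control) gave 1.61-fold, with 96 measured genes higher. The second probe of the gene, for the same transcript, was detected on neither array, with 137 in berberine-treated cells (detection p of 0.0506) and 115 in control cells (detection p of 0.357), and a log2 difference of 0.43. It was thus also brighter with berberine, but below detection. ARRDC3 lies at chr5:91368631-91383317 (GRCh38.p14), and the locus of the long noncoding transcript ARRDC3-AS1 overlaps it. Its brighter probe was detected with berberine alone, at 159 against 136 in control, a log2 difference of 0.38, and its other probe was not detected on either array.

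ARRDC2, another alpha-arrestin, did not differ by over 1.5-fold. Its brightest probe, ILMN_1715181 (NM_015683), had an intensity of 258 with berberine and 272 in control, a log2 difference of -0.26. The second probe for the same transcript, ILMN_1655612, had 184 with berberine and 173 in control, a log2 difference of -0.00. These probes differ from each other by 0.26. The SD of a single probe was 0.25, and a difference between 2 probes spreads more than that. The remaining ARRDC2 probe, for the other annotated transcript NM_001025604, was not detected on either array, with 144 in berberine-treated and 118 in control cells. ARRDC2 lies at chr19:18001124-18014102.

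ARRDC4, the alpha-arrestin closest to TXNIP in its regulation by MondoA, was at the limit of detection in HepG2 cells. Its probe ILMN_1660544 had an intensity of 132 with berberine (detection p of 0.11) and 143 in control (detection p of 0.00779), so it was detected in control alone. Its probe ILMN_2184064 had 130 with berberine (detection p of 0.158) and 137 in control (detection p of 0.0143), so it was detected on neither array. Both probes, which target the same transcript, were dimmer with berberine although the background of that array was brighter. Their log2 differences were -0.73 and -0.61, and -0.22 and -0.18 in the deposited values. Because the berberine value is below detection, the first probe gives only a bound, at least 1.04-fold lower with berberine, and at least 1.01-fold in the deposited values. Both probes thus had the lower value with berberine, as the TXNIP probe did. At these intensities neither the direction nor the size of a difference in ARRDC4 could be measured. The gene lies at chr15:97960703-97973833.

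ARRDC1, which buds vesicles from the plasma membrane with TSG101, was also dim. Its probe ILMN_1661492 had an intensity of 157 with berberine (detection p of 0.00649) and 130 in control (detection p of 0.0286). It was detected with berberine alone, and the bound was at least 1.11-fold higher with berberine, or at least 1.03-fold in the deposited values. ARRDC5, the remaining ARRDC gene and not a member of the set, was detected on neither array, at 124 with berberine and 114 in control. ARRDC1 lies at chr9:137605686-137615360. Across the alpha-arrestins, then, only TXNIP, ARRDC2 and ARRDC3 were bright enough on both arrays to compare, and their differences were not in 1 direction.

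**Figure D2:**
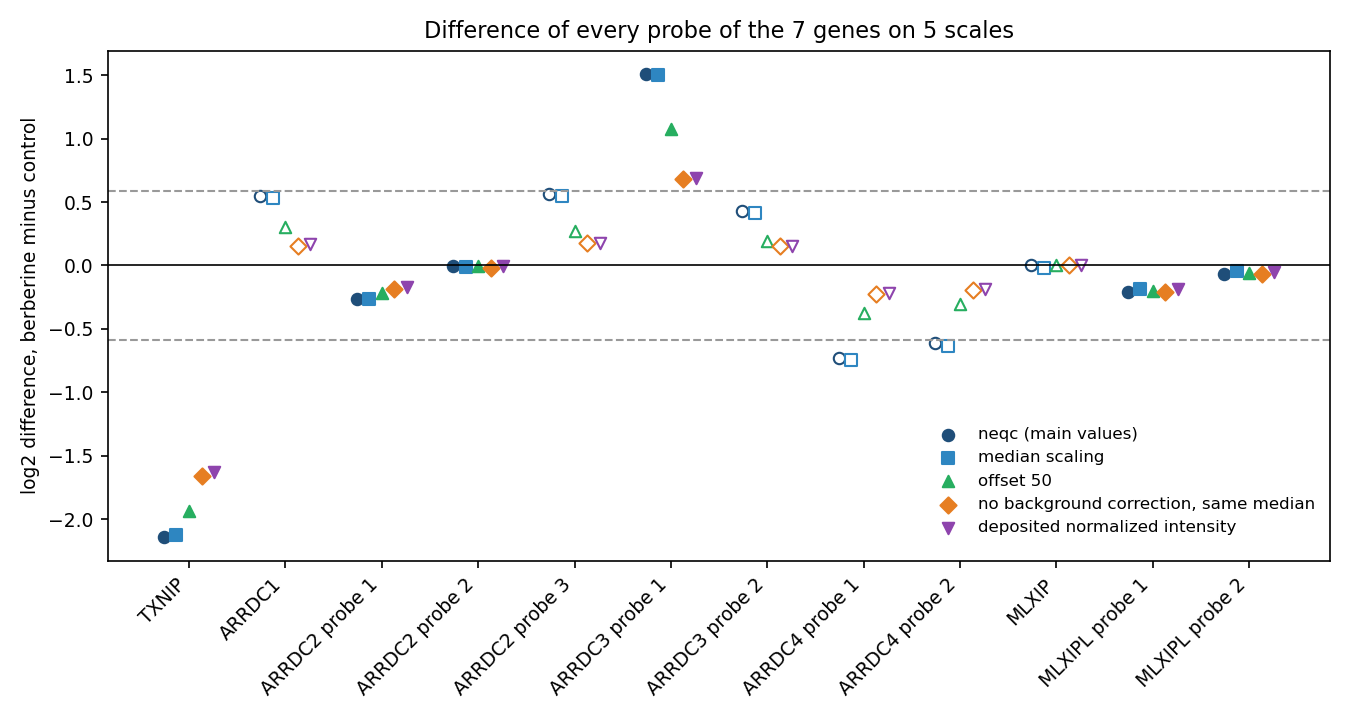
Log2 difference, berberine minus control, of each of the 12 probes on 5 scales, with open symbols for probes not detected on both arrays and dashed lines at 1.5-fold. TXNIP stays between -2.14 and -1.63 on all 5 scales, while ARRDC3 probe 1 moves between 1.51 and 0.68 with the treatment of background.

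MLXIPL, which encodes ChREBP, did not differ by over 1.5-fold. Its brighter probe, ILMN_2399919 (NM_032953), had an intensity of 894 with berberine and 958 in control, a log2 difference of -0.21. Its other probe, ILMN_1722073 (NM_032952), had 489 with berberine and 476 in control, a log2 difference of -0.07. The probes are annotated to different transcripts and differ from each other by 0.15, which is below that SD. MLXIPL lies at chr7:73593202-73647907. MLXIP, which encodes MondoA, has 1 probe in the annotation (ILMN_1693987, NM_014938), and it was at background on both arrays, with 117 in berberine-treated cells (detection p of 0.662) and 108 in control cells (detection p of 0.66). The array therefore gives no level for MondoA, at chr12:122078756-122147344, and a dim probe does not show that the transcript is absent. MLX, the dimer partner of both factors, had 287 with berberine and 230 in control at its detected probe, a log2 difference of 0.40, and its other probe was not detected.

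**Figure D3:**
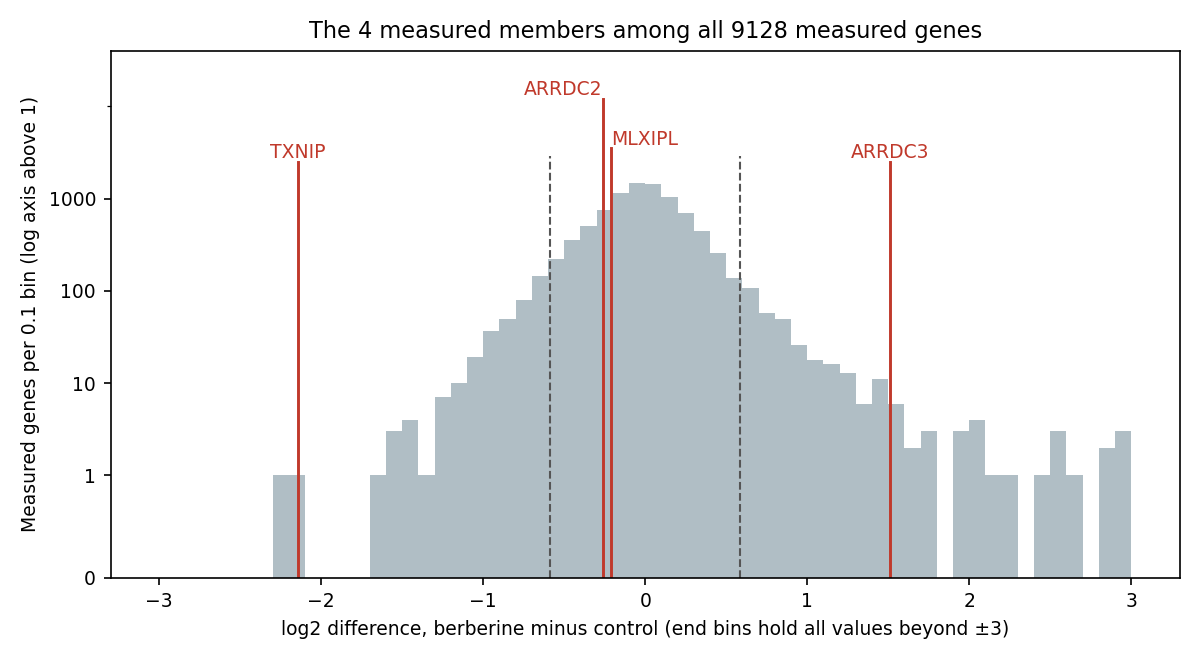
Number of measured genes per 0.1 bin of the log2 difference, berberine minus control (vertical axis logarithmic above 1), with red lines at the 4 measured members and dashed lines at 1.5-fold. TXNIP (-2.14) and ARRDC3 (1.51) lie in opposite tails, and ARRDC2 (-0.26) and MLXIPL (-0.21) near the centre.

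Around these factors lies a network of MAX and MLX partners, which compete for E-boxes. Of 10 such genes 9 were measured, and 3 were over 1.5-fold higher and 1 lower. Over all measured genes 7.95% passed this fold either way. The median log2 difference of the measured partners was 0.18, against -0.01 over all measured genes. MYC, a growth-promoting partner of MAX, had an intensity of 5111 in berberine-treated and 2084 in control cells, a log2 difference of 1.22, and its second probe gave 1.36. MNT, a repressor that pairs with MAX or MLX, had 346 with berberine and 220 in control, a log2 difference of 0.92. MXD1, another repressor of the network, had 226 with berberine and 160 in control, a log2 difference of 0.88. MXD3, of the same MXD group, was the lower one, with 181 in berberine-treated and 217 in control cells and a log2 difference of -0.73. In the deposited values MYC alone passed 1.5-fold (2.30-fold), where 2.44% of all measured genes did. On that scale MNT had a log2 difference of 0.58, just under that fold, MXD1 was 1.33-fold higher and MXD3 was 1.27-fold lower.

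MondoA and ChREBP have many other glucose-responsive targets. Of 26 listed targets 14 were measured, 1 was over 1.5-fold higher and 1 lower, where 7.95% of all measured genes passed this fold either way, and the median log2 difference was -0.00. ACACB, the mitochondrial acetyl-CoA carboxylase, had an intensity of 159 in berberine-treated and 220 in control cells, 2.40-fold lower, or 1.47-fold by the deposited intensity. Its berberine value lies near the lowest detected intensity of that array, 151.5, so the size of the fold depends on how background is treated. BHLHE40, a transcriptional repressor also known as DEC1, was 1.75-fold higher, with 2178 with berberine and 1195 in control. The lipid synthesis genes FASN and SCD, named after their values were seen, had log2 differences of -0.01 and -0.02. KLF10, a zinc finger factor, was detected with berberine alone. Its 3 probes had 180, 177 and 131 in berberine-treated cells, against 131, 140 and 134 in control cells, so they did not all go one way, and the probe with the highest mean of both arrays (177 with berberine, 140 in control) gave a bound of at least 1.53-fold higher with berberine, or 1.16-fold in the deposited values. A further 8 of these genes were detected on neither array, and 3 were not analysed here.

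Glucose transporters are cargo of TXNIP and ARRDC4. Of 20 genes of glucose uptake and phosphorylation 13 were measured, with 1 over 1.5-fold higher and 0 lower. Of all measured genes 7.95% passed this fold either way. The median log2 difference of the 13 genes was 0.08. SLC2A1, which encodes GLUT1, had an intensity of 2090 in berberine-treated and 1117 in control cells, 1.82-fold higher, and 1.73-fold in the deposited values. Its transcript thus differed in the direction opposite to that of TXNIP.

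TXNIP restrains the thioredoxin system. Of its 21 listed genes 17 were measured, 1 was over 1.5-fold higher and 0 lower, against 7.95% either way over all measured genes, and the median log2 difference was 0.07. TXN, the thioredoxin that TXNIP binds, had an intensity of 15415 with berberine and 13719 in control at its brighter probe, which held the same rank on both arrays and so had a log2 difference of 0.00, and its other probe gave 0.09. TXN2, the mitochondrial thioredoxin, had 286 with berberine and 190 in control, 1.87-fold higher, and 1.43-fold in the deposited values.

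NEDD4 family ligases and the sorting proteins that work with alpha-arrestins formed another list. Of 15 such genes 10 were measured, 1 was over 1.5-fold higher and 0 lower, beside that background of 7.95%, and the median log2 difference was 0.12. WWP2, a ligase of this family, was 2.08-fold higher at its detected probe, with an intensity of 702 in berberine-treated and 369 in control cells, and 1.79-fold in the deposited values. Its other probes were detected on neither array. Among 9 other genes with an arrestin fold, 4 were measured and 0 passed 1.5-fold. VPS26C, a subunit of the endosomal retriever complex, had a log2 difference of 0.35, the beta-arrestin ARRB1 had 0.14, and the retromer subunits VPS26B and VPS26A had 0.08 and -0.00.

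**Figure D4:**
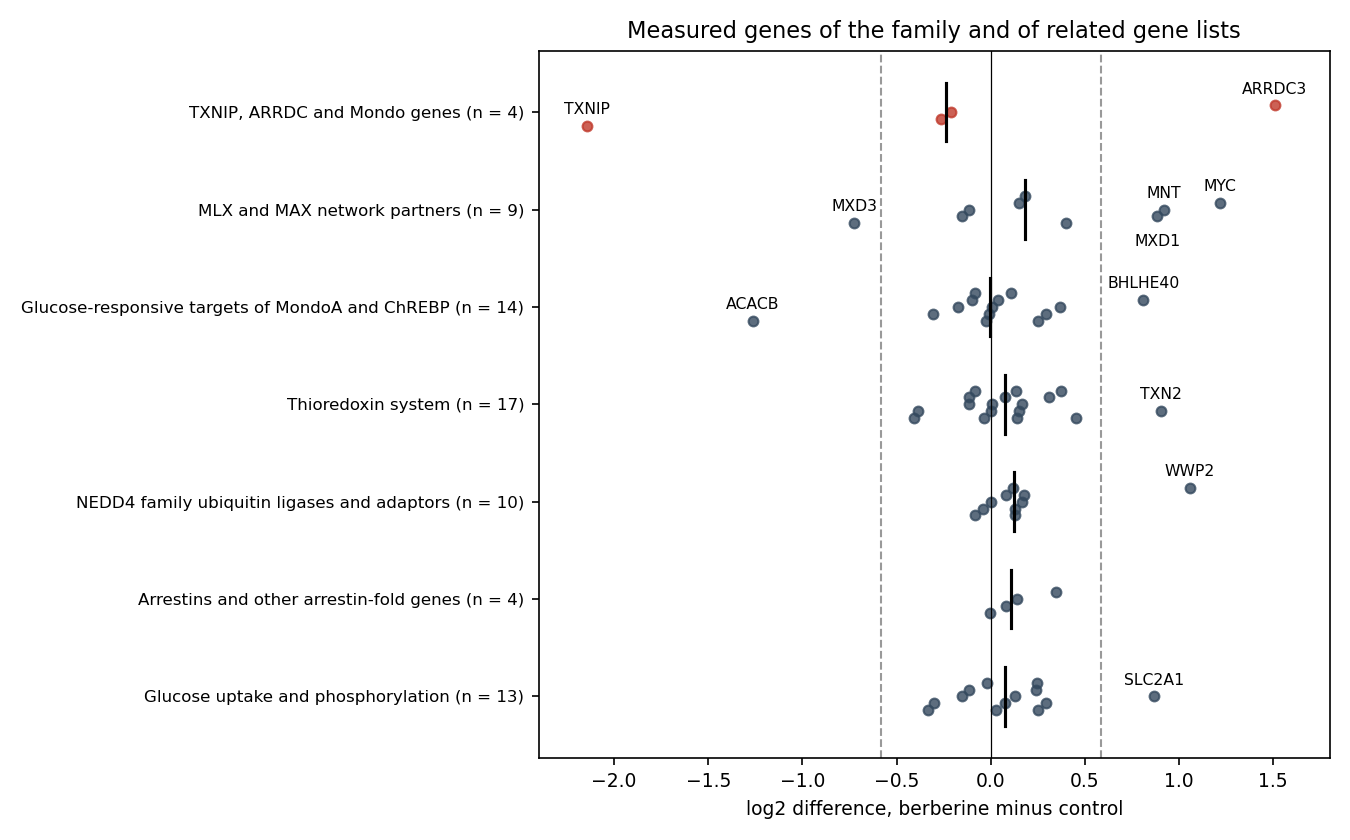
Log2 difference, berberine minus control, of each measured gene of the family (red) and of the 6 related lists (dark), with black ticks at the median of each row and dashed lines at 1.5-fold; names mark genes over 1.5-fold. On this neqc scale TXNIP lies at -2.14 and ARRDC3 at 1.51, and the lists reach from ACACB (-1.26) to MYC (1.22). In the deposited values ARRDC3 (0.69) is below MYC (1.20), and ACACB (-0.55) is within 1.5-fold.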

How the data were processed

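RNA of 1 berberine-treated and 1 control culture of HepG2 cells was hybridized to Illumina HumanHT-12 v4 arrays. The authors deposited each probe's intensity without background subtraction or normalization, and its detection p-value on either array, from GenomeStudio (version and genome build not given in the sources used here). They also deposited a normalized intensity, whose ranks equal those of the first table and whose sorted columns differ by at most 0.103%. Its method is not stated.

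Main values came from neqc of limma 3.58.1 (R 4.3.3), which corrects background using the detection p-values (normexp), adds 16 as offset, quantile-normalizes and takes log2. This enlarges folds of dim probes relative to the deposited values. Differences are log2 berberine minus log2 control. Gene values are those of the brightest probe with detection p under 0.01 on both arrays, and 1.5-fold is the fold threshold of the methods. Their P threshold was not applied here, because 1 array per group gives no spread between replicates. For a probe detected on 1 array, the bound sets the bright value against the higher of the dim value and the lowest detected value of that array. Of 47231 probes 30113 had 1 symbol. These symbols were updated with RefSeq (GRCh38.p14) by gene identifier for 30074 probes and by transcript for 18, and 21 were kept unchanged. Probes without exactly 1 symbol were left out of gene counts. Python 3.11.15, pandas 2.3.3, numpy 2.4.6 and matplotlib 3.10.9 were used. The normalization step alone was tested on simulated data.

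The members and lists were chosen with earlier results of these data known. All members were named, and of each list the genes over 1.5-fold or, with none, up to 4 with the largest difference, besides MLX and TXN. ZC3HAV1, HES1, PKLR, FASN, SCD, KLF10 and the neighbours ARRDC5 and ARRDC3-AS1 fall outside this rule and were chosen after their values were seen. The number of arrays limits the precision. Alternatives covered background, normalization, detection and the mean of probes.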

Additional observations from a re-analysis of the deposited data

How the results depend on the processing

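TXNIP was lower with berberine under all 5 alternatives run. Its log2 difference was -2.14, but -1.63 in the deposited normalized intensity and -1.66 in the non-normalized intensity scaled to the same median, since both keep the background. ARRDC3 was over 1.5-fold higher under all 5. Its log2 difference was 1.51, but 1.08 at an offset of 50, 0.69 in the deposited values and 0.68 at the same median. For TXNIP and ARRDC3 the mean of detected probes could only repeat the main value, since each had 1 probe detected on both arrays. The values of ARRDC2 and MLXIPL changed less than the probe SD of 0.25, which does not measure changes between settings. With no filter on dim probes, the members over 1.5-fold lower were 2, since ARRDC4 entered with -0.73. In the deposited values, genes over 1.5-fold were 1 higher and 0 lower among MLX and MAX partners, 0 lower among glucose-responsive targets and 0 higher in the thioredoxin system. With no filter, 2 glucose-responsive targets were higher. Over all measured genes the deposited values gave 131 higher and 92 lower, against 353 and 373. No paired analysis was possible because each group has 1 array, and no replicate could be left out.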
